A study of Mus musculus with 2 samples.

Results

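Glycolytic enzymes that exist as a muscle isoenzyme and a more widely expressed isoenzyme were followed in mouse cells at different stages of myogenesis. The set held 10 genes, chosen by symbol: Pgam1 and Pgam2, Eno1 and Eno3, Ldha and Ldhb, Pfkm, Pfkl and Pfkp, and Pkm. All 10 were among the 25828 features counted, and all 10 were measured in every comparison. They were read as isoenzyme shares, meaning the UMIs (unique molecular identifiers, one per captured transcript) of 1 gene as a percentage of the UMIs of its family.

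The study derived induced myogenic progenitor cells (iMPCs) from mouse embryonic fibroblasts without an integrated transgene for MyoD, the factor that converts fibroblasts to muscle. Droplet single-cell RNA sequencing was performed on 2 libraries, each made from 1 clone. The first group, F/R/C+CP iMPCs, had been reprogrammed and cultured with Forskolin, RepSox, CHIR and the JAK inhibitor CP, and the other, F/R/C iMPCs, with Forskolin, RepSox and CHIR alone. Cells of both carried the Tg:Pax7-nGFP reporter on a C57BL6;DBA2 background, and both received 4 transfections of synthetic MyoD-mRNA in iMPC medium with B18R, an interferon decoy that helps cells to tolerate RNA. Cells were strained before loading to remove debris and multinucleated myotubes, so large multinucleated cells were meant to be left out. With 1 library per group there was no replicate check, no p-value is given, and CP, clone and library cannot be told apart.

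Glycolysis splits glucose into pyruvate, and several of its steps have isoenzymes that are encoded by separate genes. Developing skeletal muscle is known for replacing ubiquitous isoenzymes by muscle ones: Pgam2 takes over from Pgam1 at the phosphoglycerate mutase step, Eno3 (beta-enolase) from Eno1 (alpha-enolase) at the enolase step, and Pfkm is the muscle subunit of phosphofructokinase, the committed step. Ldha and Ldhb encode the subunits of lactate dehydrogenase, with Ldha dominant in fast muscle and Ldhb in heart. Pkm gives both the M1 and the M2 form of pyruvate kinase by alternative splicing, which the end-counted UMIs used here do not separate.

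The promoters of the mutase pair and of Eno3 are shown because these genes carry the largest changes in share. Each is the 250 bases before the start site in RefSeq (build GRCm38.p6, whereas the counts were made on GRCm39), written 5′ to 3′ on the strand of the gene, and capitals mark matches to CANNTG (the E-box bound by MyoD and myogenin) or to the MEF2 motif on either strand.
Pgam2 promoter, chr11:5803797-5804046, minus strand: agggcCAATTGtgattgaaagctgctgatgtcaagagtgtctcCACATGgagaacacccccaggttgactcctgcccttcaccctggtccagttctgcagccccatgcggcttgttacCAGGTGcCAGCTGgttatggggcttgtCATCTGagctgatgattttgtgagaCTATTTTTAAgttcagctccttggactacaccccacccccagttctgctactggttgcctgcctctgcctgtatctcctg
Eno3 promoter, chr11:70656926-70657175, plus strand: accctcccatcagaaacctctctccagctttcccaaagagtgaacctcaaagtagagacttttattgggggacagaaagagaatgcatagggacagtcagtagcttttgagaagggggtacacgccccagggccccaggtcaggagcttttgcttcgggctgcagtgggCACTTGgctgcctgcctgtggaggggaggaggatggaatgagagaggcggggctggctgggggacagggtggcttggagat
Pgam1 promoter, chr19:41911621-41911870, plus strand: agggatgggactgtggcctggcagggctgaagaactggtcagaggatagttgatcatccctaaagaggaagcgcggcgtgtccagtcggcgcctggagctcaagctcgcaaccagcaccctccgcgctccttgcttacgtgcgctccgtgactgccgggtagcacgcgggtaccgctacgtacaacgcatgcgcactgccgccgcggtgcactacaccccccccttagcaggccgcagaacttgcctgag

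The Pgam2 window held 5 CANNTG matches, the nearest 105 bases before the start site, and 1 MEF2 match 80 bases before it. One of the 5 was CAGCTG, 125 bases before the start site. Among 32841 RefSeq promoter windows of the same length, 66.2% held at least 1 CANNTG, 1.15% held 5 or more, and 2.92% held a MEF2 match. The Eno3 window held 1 CANNTG match, 81 bases before the start site, and no MEF2 match. The Pgam1 window held neither. Of the other members, 1 of the Ldha windows held 5 matches to ACGTG, the core of the hypoxia response element, 4 of them inside 2 copies of CACGTG. Of all windows, 16.6% held at least 1 ACGTG, 0.134% held 5 or more, and 6.02% held at least 1 CACGTG. All 10 members had a RefSeq window, 17 windows in all. These matches describe letters only and no binding was measured.

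The matrix of F/R/C+CP contained 12000 barcodes with 313078984 UMIs, against 5541 barcodes with 36999292 UMIs for F/R/C. After the limits on genes, mitochondrial and ribosomal protein counts, 10834 (90.3%) and 3962 (71.5%) barcodes were kept in F/R/C+CP and F/R/C, with medians of 21844.5 and 7112 UMIs. The shallowest kept barcode had 12097 UMIs in F/R/C+CP and 500 in F/R/C. The round number of 12000 barcodes and the high minimum in F/R/C+CP may come from a preset cell number, which the sources used here do not give, and the percentage kept and the classes set by a top percentage depend on it. Only 18 barcode sequences occurred in both libraries. Leaving them out changed no share beyond counting error.

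Kept barcodes were divided into exclusive classes with genes that are no members. Acta1-high barcodes were the 10% with the highest level of Acta1, skeletal muscle alpha-actin. Myog-high barcodes were the next 10% by Myog, which encodes myogenin, the factor of committed myocytes. Pax7-positive barcodes had at least 1 UMI of Pax7, the transcription factor of muscle stem cells, and belonged to neither. These classes are ranges cut from a level and not cell types. There were 6084 Pax7-positive, 1083 Myog-high and 1083 Acta1-high barcodes in F/R/C+CP, and 1838, 396 and 396 in F/R/C. Within 10% of the Acta1 cut lay 257 F/R/C+CP and 75 F/R/C barcodes, and within 10% of the Myog cut 403 and 151.

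The classes were checked against marker lists. All 12 skeletal muscle markers were past 2-fold higher in Acta1-high than in Pax7-positive barcodes in both libraries, and all 12 cycling markers were past 2-fold lower. Acta1 is 1 of these muscle markers and sets the class, so its call was fixed in advance. Of 8 satellite cell markers, which include Pax7, 5 in F/R/C+CP and 6 in F/R/C were past 2-fold lower. Another 2 and 1 were higher, by less than 2-fold. Of all genes measured, 39.7% and 39.2% were past 2-fold lower. The summed level of the muscle markers was 78232 CPM (counts per 1000000 summed UMIs) in Acta1-high and 6386 CPM in Pax7-positive barcodes of F/R/C+CP, against 51037 and 775 CPM in F/R/C. Acta1 itself gave 15786 CPM of the Acta1-high sum in F/R/C+CP and 11204 CPM in F/R/C. The Pax7-positive barcodes of F/R/C+CP thus held more muscle transcripts than those of F/R/C. Acta1-high barcodes with a Pax7 UMI made up 16.8% in F/R/C+CP and 4.80% in F/R/C, and doublets were not removed. Acta1-high barcodes were deeper than Pax7-positive barcodes in F/R/C+CP (medians of 40901 and 20902.5 UMIs) and alike in F/R/C (7876.5 and 7514.5 UMIs). The median mitochondrial percentage in F/R/C was 11.3% in Acta1-high and 7.61% in Pax7-positive barcodes, against 5.81% and 5.46% in F/R/C+CP. Their part in the results was not tested beyond the alternative settings.

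All 4 families differed in isoenzyme share between the classes, in both libraries, by more than counting error. The muscle isoenzymes Pgam2, Eno3 and Pfkm took larger shares in Acta1-high than in Pax7-positive barcodes, and Ldhb took a smaller one. Every interval given is a 95% exact interval (Clopper-Pearson for shares, Poisson for levels, conditional binomial for ratios) and covers counting error only, since barcodes of 1 library are not replicates.

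Phosphoglycerate mutase showed the largest change in share of the 4 families in F/R/C+CP, and enolase in F/R/C. In F/R/C+CP, Pgam2 made up 20.2% of mutase UMIs in Pax7-positive, 36.1% in Myog-high and 87.6% in Acta1-high barcodes. The shares in F/R/C were 0.607%, 3.20% and 49.4%. Pgam2 was therefore nearly absent from Pax7-positive F/R/C barcodes, with 67 of 11036 mutase UMIs, and about equal to Pgam1 in Acta1-high ones, with 1021 of 2067. The difference between Acta1-high and Pax7-positive barcodes was 67.3 percentage points in F/R/C+CP (interval 66.9 to 67.8) and 48.8 points in F/R/C (46.6 to 51.0). Without the filter on barcodes the F/R/C difference was 59.8 points, and with the 20% highest Acta1 levels as Acta1-high it was 34.4 points.

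Enolase changed by about as much in both libraries. In F/R/C+CP, Eno3 made up 19.3% of enolase UMIs in Pax7-positive, 34.5% in Myog-high and 72.3% in Acta1-high barcodes. Eno3 shares in F/R/C were 9.39%, 34.997% and 64.3%. The difference between Acta1-high and Pax7-positive barcodes was 53.1 points in F/R/C+CP (52.5 to 53.6) and 54.9 points in F/R/C (52.9 to 56.8). Eno1 shares 71.6% of the 31-base words in its last 500 bases with Eno1b, a near-identical copy that was counted on its own at 2.28 to 5.41 CPM. Reads that fit both genes may be missing from either, so the Eno3 share also depends on how they were treated. Adding the UMIs of Eno1b to Eno1 does not bring such reads back.

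Lactate dehydrogenase moved in the other direction. Ldhb made up 10.96% of the family in Pax7-positive, 3.53% in Myog-high and 4.04% in Acta1-high barcodes of F/R/C+CP. Ldhb shares in F/R/C were 20.1%, 4.11% and 5.70%. Ldha was thus the main isoenzyme in every class, and the Ldhb share was smaller in Acta1-high than in Pax7-positive barcodes by 6.92 points in F/R/C+CP (interval of the difference -7.17 to -6.67) and by 14.4 points in F/R/C (-15.4 to -13.3).

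Phosphofructokinase has 3 genes. Pfkm made up 17.1% of their UMIs in Pax7-positive, 20.8% in Myog-high and 44.1% in Acta1-high barcodes of F/R/C+CP, and 4.09%, 10.5% and 32.9% in F/R/C. Pfkl, the liver type, gave way: its share in F/R/C+CP was 41.7% in Pax7-positive, 49.1% in Myog-high and 16.6% in Acta1-high barcodes. Its share in F/R/C was 64.3%, 75.7% and 36.4%. The Pfkm difference between Acta1-high and Pax7-positive barcodes was 27.0 points in F/R/C+CP (25.8 to 28.2) and 28.8 points in F/R/C (24.8 to 33.0). Pfkp, the platelet type, kept a similar share at both ends, with 39.3% in Acta1-high and 41.2% in Pax7-positive barcodes of F/R/C+CP, and 30.7% and 31.6% in F/R/C.

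**Figure D1:**
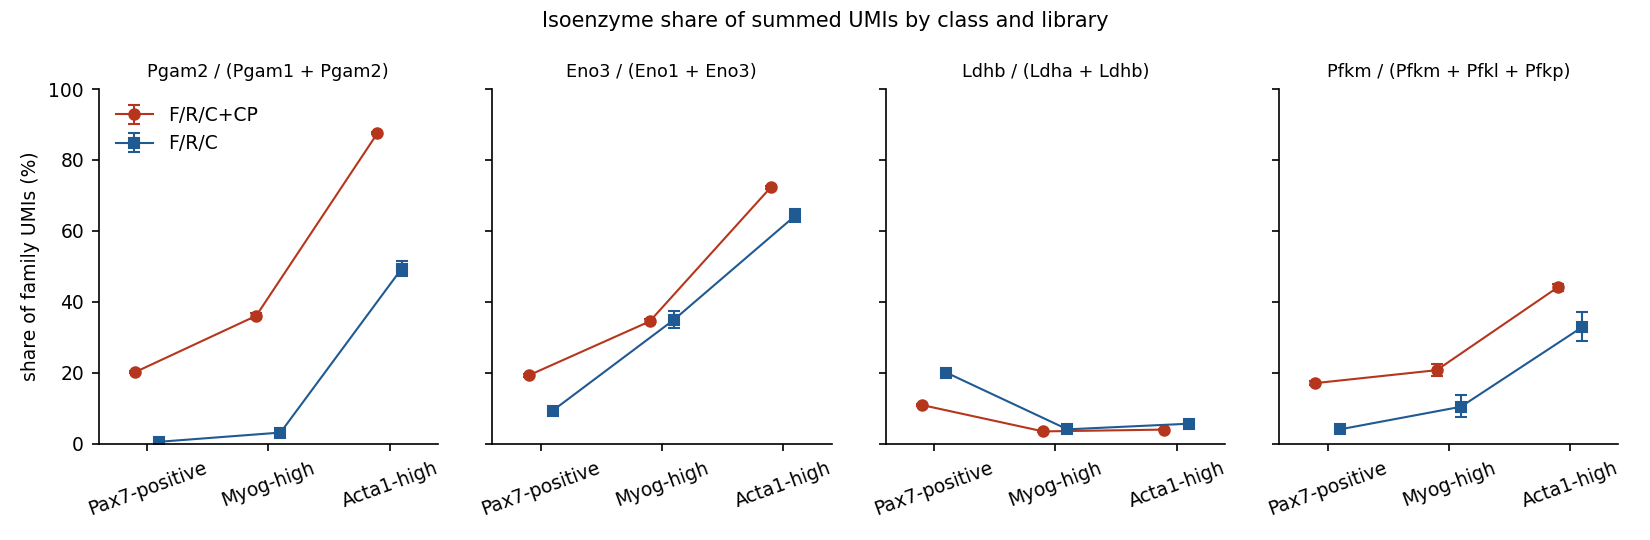
Share of the family's summed UMIs (percent, vertical axis) taken by Pgam2, Eno3, Ldhb and Pfkm in Pax7-positive, Myog-high and Acta1-high barcodes, with F/R/C+CP as red circles and F/R/C as blue squares, and bars for 95% exact intervals of counting error. Pgam2 reached 87.6% in F/R/C+CP and 49.4% in F/R/C, while Ldhb was already down to 3.53% and 4.11% in Myog-high barcodes.

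The families did not change at the same class. Of the difference between Acta1-high and Pax7-positive barcodes in F/R/C, the Myog-high barcodes already showed 111% for Ldhb, 46.6% for Eno3, 22.2% for Pfkm and 5.32% for Pgam2. The percentages in F/R/C+CP were 107% for Ldhb, 28.7% for Eno3, 13.5% for Pfkm and 23.6% for Pgam2. By this measure the order was Ldhb first and Eno3 next in both libraries, with Pgam2 and Pfkm in opposite order in the 2 libraries. It rests on shares, which also depend on the level of the partner gene. As levels, Pgam2 and Eno3 were higher in Myog-high than in Pax7-positive F/R/C barcodes by similar log2 ratios, 2.15 (1.63 to 2.66) and 2.12 (1.95 to 2.29). From Myog-high to Acta1-high F/R/C barcodes the log2 ratios were 4.03 for Pgam2 and 1.70 for Eno3. The Myog-high classes were unlike. Cycling markers summed to 534 CPM in F/R/C+CP and 1188.5 CPM in F/R/C, and muscle markers to 15589 and 7578 CPM. The fewest Myog UMIs in a Myog-high barcode were 20 in F/R/C+CP and 1 in F/R/C. Whether the order depends on these differences was not tested. The place of Pgam2 in F/R/C+CP may also depend on the muscle RNA found in most barcodes of that library, which is described further on.

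The Myog-high class was also divided by Acta1 level. When its F/R/C barcodes were put in 4 equal bins by Acta1 level, the Ldhb share was 3.74%, 4.57%, 4.00% and 4.02% from the lowest to the highest bin. The Eno3 share there was 21.3%, 26.2%, 34.9% and 49.2%. The Pgam2 share was 0.622%, 1.30%, 3.06% and 8.86%. Myog-high barcodes with almost no Acta1 (3.04 CPM in the lowest bin) thus had the low Ldhb share and more Eno3 than the Pax7-positive barcodes, but a Pgam2 share that did not differ from theirs beyond counting error (interval 0.129% to 1.81%). The Ldhb share of the 4 bins in F/R/C+CP was 3.22%, 3.36%, 3.59% and 3.86%, and the Eno3 share 22.2%, 25.1%, 31.4% and 48.03%. The Pgam2 share there was 20.8%, 22.99%, 28.7% and 60.5%, so that Pgam2 exceeded Eno3 in the highest bin of F/R/C+CP and not in that of F/R/C.

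Ordering all kept barcodes by Acta1 level gave a finer view. In the F/R/C library, the Pgam2 share was 1.11% in bin 8 of 10 (398 CPM of Acta1), 12.9% in bin 9 (2850 CPM) and 49.4% in bin 10 (11204 CPM). The Eno3 share in these bins was 18.2%, 48.8% and 64.3%. Eno3 had therefore covered most of its range in bin 9, where Pgam2 had not. The Ldhb share was 14.0%, 6.02% and 5.70%, and the Pfkm share 5.05%, 22.8% and 32.9%. The 1701 F/R/C barcodes without an Acta1 UMI had 0.410% Pgam2, 10.5% Eno3, 18.2% Ldhb and 4.69% Pfkm.

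In the F/R/C+CP library, Pgam2 and Eno3 moved between the same bins. From bin 8 (1547 CPM of Acta1) over bin 9 (5673 CPM) to bin 10 (15786 CPM), the Pgam2 share was 25.5%, 68.5% and 87.6%, and the Eno3 share 26.4%, 52.8% and 72.3%. The Ldhb share in these bins was 8.22%, 4.82% and 4.04%, and the Pfkm share 16.8%, 35.2% and 44.1%. The Pgam2 share thus exceeded the Eno3 share beyond counting error in bins 9 and 10 of F/R/C+CP, after near-equal shares of 20.2% and 20.1% in bin 7. In F/R/C the Pgam2 share was below the Eno3 share in every bin.

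**Figure D2:**
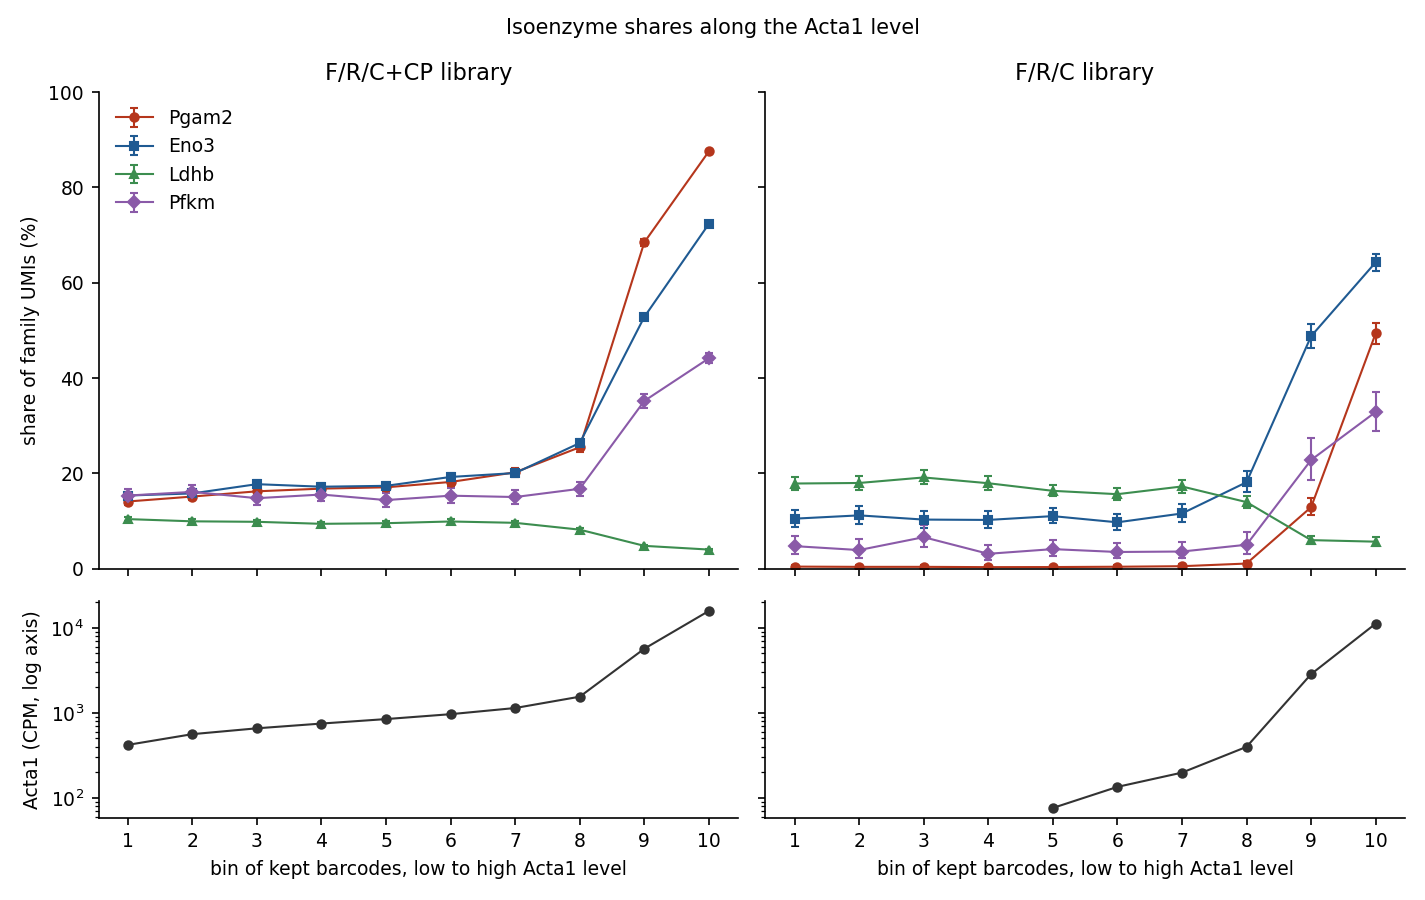
Upper panels, share of family UMIs (percent) of Pgam2, Eno3, Ldhb and Pfkm in 10 equal bins of kept barcodes from low to high Acta1 level, with 95% exact intervals, for F/R/C+CP on the left and F/R/C on the right. Lower panels, Acta1 level of each bin (CPM, log axis), where the 4 F/R/C bins without an Acta1 UMI are not drawn and their order is arbitrary; Pgam2 reached 68.5% in bin 9 of F/R/C+CP and 12.9% in bin 9 of F/R/C.

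The shares could rest on the muscle gene, on its partner or on both, and the levels separate these. Of the 10 members, 3 were past 2-fold higher and 1 was past 2-fold lower in Acta1-high than in Pax7-positive barcodes of F/R/C+CP. Of 17201 genes measured there, 12.9% were past 2-fold higher and 39.7% past 2-fold lower. Among F/R/C barcodes, 3 members were past 2-fold higher and 2 past 2-fold lower, against 10.1% and 39.2% of 13385 genes. The 3 higher members were Pgam2, Eno3 and Pfkm in both libraries. The median log2 ratio of the members was 0.54 in F/R/C+CP and -0.21 in F/R/C, against -0.65 and -0.68 over all genes measured, and -0.09 and -0.21 over genes of at least 50 CPM in both classes.

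Pgam2 and Pgam1 changed in opposite directions. Pgam2 had 928 CPM in Acta1-high and 73.4 CPM in Pax7-positive barcodes of F/R/C+CP, a log2 ratio of 3.66 (3.63 to 3.69). Its F/R/C levels were 346 CPM in Acta1-high and 4.78 CPM in Pax7-positive barcodes, a log2 ratio of 6.18 (5.82 to 6.56) or 72.4-fold. Pgam1 had 132 CPM in Acta1-high and 290 CPM in Pax7-positive barcodes of F/R/C+CP, and 354 and 782 CPM in F/R/C. The log2 ratio of Pgam1 was -1.13 in F/R/C+CP and -1.14 in F/R/C, so that Pgam1 was lower by nearly the same factor in both libraries. The sum of both mutases was 1060 CPM in Acta1-high and 363 CPM in Pax7-positive barcodes of F/R/C+CP, whereas in F/R/C it was 700 and 787 CPM. The F/R/C mutases were thus exchanged at a similar sum.

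Enolase differed from mutase in the partner gene, since Eno1 changed little while Eno3 was higher. Eno3 had 728 CPM in Acta1-high and 77.6 CPM in Pax7-positive barcodes of F/R/C+CP, and 601 and 42.6 CPM in F/R/C. The log2 ratio of Eno3 was 3.23 (3.20 to 3.26) in F/R/C+CP and 3.82 (3.69 to 3.96) in F/R/C. Eno1 had 278 CPM in Acta1-high and 325 CPM in Pax7-positive barcodes of F/R/C+CP, and 334 and 411 CPM in F/R/C, with log2 ratios of -0.22 and -0.30. The sum of both enolases was therefore past 2-fold higher, with 1006 CPM in Acta1-high and 402 CPM in Pax7-positive barcodes of F/R/C+CP and 935 and 453 CPM in F/R/C. The mutase sum was past 2-fold higher in F/R/C+CP as well, but not in F/R/C.

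The lactate dehydrogenase share rested mainly on Ldhb in F/R/C and on both genes in F/R/C+CP. Between Acta1-high and Pax7-positive barcodes, the log2 ratio of Ldha was 0.82 in F/R/C+CP and 0.10 in F/R/C, and that of Ldhb was -0.73 and -1.96. Ldhb had 50.5 CPM in Acta1-high and 83.6 CPM in Pax7-positive barcodes of F/R/C+CP, and 56.9 and 221 CPM in F/R/C. The lowest Ldhb level in F/R/C+CP, 34.3 CPM, was found in Myog-high barcodes. The F/R/C Myog-high level of 53.4 CPM did not differ from the Acta1-high level beyond counting error. Ldha had 679, 936 and 1198 CPM in Pax7-positive, Myog-high and Acta1-high barcodes of F/R/C+CP, and 877, 1247 and 942 CPM in F/R/C. Ldha thus kept increasing with the class in F/R/C+CP and was highest in Myog-high barcodes in F/R/C. Of the 31-base words in its last 500 bases, 44.4% of those of Ldhb occur in the pseudogene Gm5514, which was not counted, and 24.0% of those of Ldha occur in other genes, so both levels depend on how reads from copies were treated.

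Among the phosphofructokinases, Pfkm had 82.7 CPM in Acta1-high and 18.05 CPM in Pax7-positive barcodes of F/R/C+CP, and 59.95 and 7.84 CPM in F/R/C. Its level in Myog-high barcodes, 18.8 CPM in F/R/C+CP, did not differ from the Pax7-positive level beyond counting error, while in F/R/C it was 14.3 CPM and higher (log2 ratio 0.87, 0.33 to 1.39). Pfkl had 31.03 CPM in Acta1-high and 43.9 CPM in Pax7-positive barcodes of F/R/C+CP, and 66.4 and 123 CPM in F/R/C. Pfkp was lowest in between: it had 43.4, 27.2 and 73.6 CPM in Pax7-positive, Myog-high and Acta1-high barcodes of F/R/C+CP, and 60.5, 18.9 and 55.9 CPM in F/R/C. The dip in Myog-high barcodes exceeded counting error in both libraries, with log2 ratios to Pax7-positive barcodes of -0.68 (-0.79 to -0.57) and -1.68 (-2.09 to -1.29). In that comparison, 2 members were past 2-fold higher and 1 past 2-fold lower in F/R/C+CP, against 7.87% and 27.8% of genes, and 2 and 2 in F/R/C, against 8.44% and 26.5%.

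Pkm, the last member, went in different directions in the 2 libraries. It had 886 CPM in Acta1-high and 714 CPM in Pax7-positive barcodes of F/R/C+CP, a log2 ratio of 0.31 (0.30 to 0.33). For F/R/C the values were 681 CPM in Acta1-high and 1159 CPM in Pax7-positive barcodes, a log2 ratio of -0.77 (-0.83 to -0.70). The difference between these ratios was not tested, since there was 1 library per group. Of the 31-base words in its last 500 bases, 34.4% of those of Pkm occur in other genes. Its level therefore also depends on how reads from copies were treated.

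**Figure D3:**
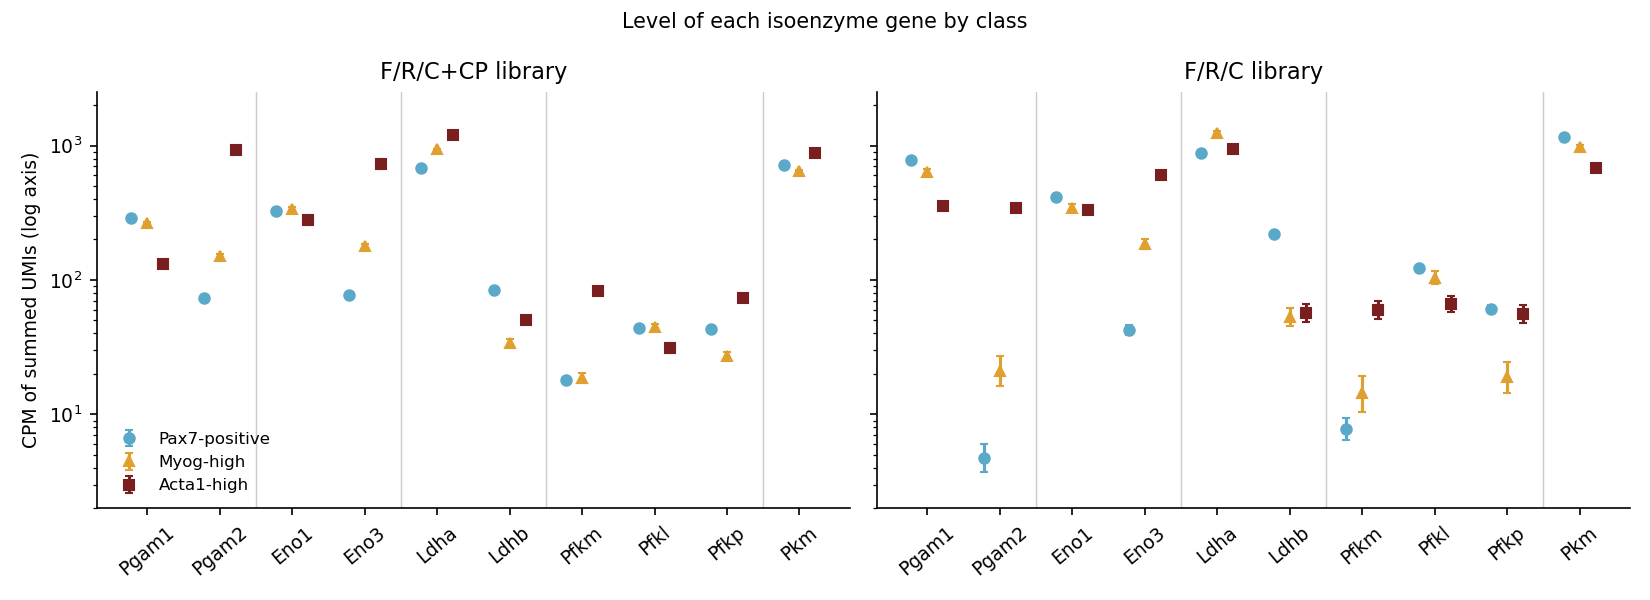
Level of each of the 10 genes (CPM of summed UMIs, log axis) in Pax7-positive, Myog-high and Acta1-high barcodes, for F/R/C+CP on the left and F/R/C on the right, with 95% exact Poisson intervals where these exceed the marker. Pgam2 spans 4.78 to 346 CPM in F/R/C, Eno1 stays between 278 and 411 CPM in all classes, and Pfkp is lowest in Myog-high barcodes of both libraries.

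Single barcodes were examined to see whether both isoenzymes were read together. Among Acta1-high barcodes with at least 10 mutase UMIs, 94.1% of 1033 in F/R/C+CP and 96.5% of 57 in F/R/C held both Pgam1 and Pgam2. The Pgam2 share per barcode had a median of 88.9% (quartiles 80% and 94.4%, range 23.5% to 100%) in F/R/C+CP. The F/R/C median was 57.1% (quartiles 40% and 77.8%, range 0% to 100%). The F/R/C barcodes were thus spread over the whole range, whereas 468 of the 1033 F/R/C+CP barcodes were above 90%. Shares per barcode rested on fewer UMIs in F/R/C, where 396 Acta1-high barcodes held 2067 mutase UMIs, against 49257 in 1083 F/R/C+CP barcodes. Few UMIs widen the spread of a share by counting error, and how much of the spread this makes up was not tested. The Eno3 share per barcode was alike, with medians of 69.2% in 1028 F/R/C+CP and 71.4% in 108 F/R/C barcodes. Only deep barcodes could be used in F/R/C, where 57 of 396 Acta1-high barcodes had enough mutase UMIs.

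Both shares were also compared within a barcode. Of 1062 Acta1-high F/R/C+CP barcodes with at least 5 UMIs of each family, the Eno3 share exceeded the Pgam2 share in 148 (13.9%). For F/R/C barcodes, it did so in 87 of 141 (61.7%). The muscle isoenzyme thus took the larger share in enolase in most of these F/R/C barcodes, and in mutase in most F/R/C+CP barcodes. The shares in Pax7-positive barcodes were unequal to begin with, so this compares shares and not changes.

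**Figure D4:**
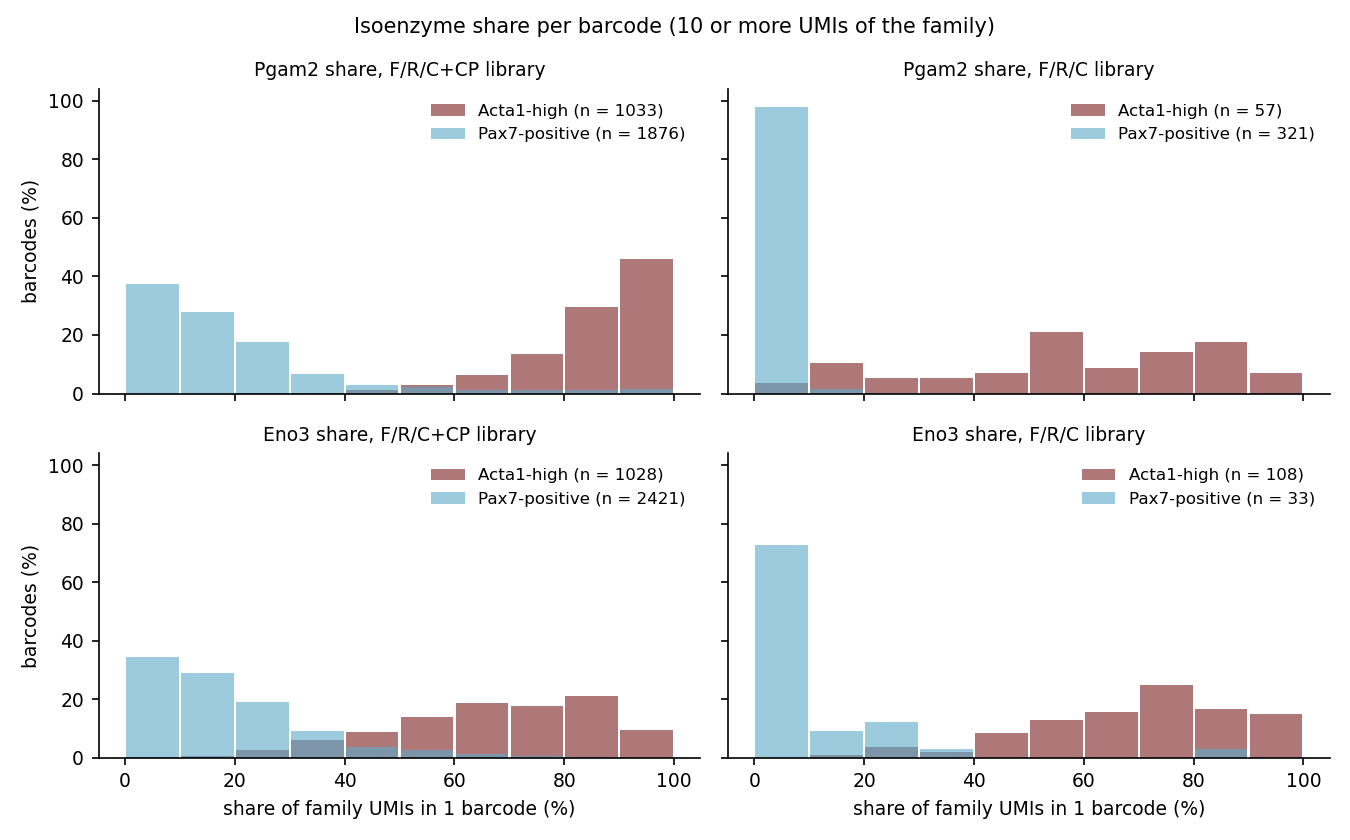
Percentage of barcodes (vertical axis) by the share of Pgam2 in mutase UMIs (upper panels) or of Eno3 in enolase UMIs (lower panels) within 1 barcode (percent, horizontal axis), for F/R/C+CP on the left and F/R/C on the right, with Acta1-high barcodes in dark red, Pax7-positive barcodes in blue and only barcodes with at least 10 UMIs of the family. The Pgam2 median of Acta1-high barcodes was 88.9% in F/R/C+CP and 57.1% in F/R/C, while the Eno3 medians were 69.2% and 71.4%.

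Between the libraries, the Pgam2 share over all kept barcodes was 49.6% in F/R/C+CP and 6.16% in F/R/C, a difference of 43.5 points (43.0 to 43.9). With every barcode weighted equally it was 24.1 points, and within the range of 12097 to 23465 UMIs that both libraries hold it was 11.7 points. The Eno3 share was 40.8% in F/R/C+CP and 25.6% in F/R/C, the Pfkm share 25.7% and 8.73%, and the Ldhb share 7.67% and 14.9%. In the UMI range both libraries hold, these 3 differences had the opposite sign, at -20.5, -0.545 and 1.03 points. That range held 6213 F/R/C+CP barcodes, 150 of them Acta1-high, and 190 F/R/C barcodes, 42 of them Acta1-high, so the mix of classes differed. Differences in share over all barcodes are therefore not read further, and those within classes are given.

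Within the Acta1-high class, the Pgam2 share was higher in F/R/C+CP than in F/R/C by 38.2 points (36.0 to 40.4), the Pfkm share by 11.3 points (6.97 to 15.3) and the Eno3 share by 8.05 points (6.22 to 9.92). The Ldhb share was lower by 1.65 points (difference -2.57 to -0.829). Both Pgam2 and Pgam1 contributed, since Pgam2 had 928 CPM in F/R/C+CP against 346 CPM in F/R/C, and Pgam1 had 132 CPM against 354 CPM. In Myog-high barcodes, the Eno3 difference of -0.46 points (-2.97 to 1.99) and the Ldhb difference of -0.58 points (-1.28 to 0.06) were within counting error, although intervals of this width leave room for small differences.

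The Acta1 level of the Acta1-high class itself differed, with 15786 CPM in F/R/C+CP and 11204 CPM in F/R/C. Bins of the class with matched Acta1 level were therefore compared. The lowest of 5 bins in F/R/C+CP (10509 CPM of Acta1) had 83.7% Pgam2 (82.8 to 84.5), and the middle of 5 bins in F/R/C (10493 CPM) had 50% (45.2 to 54.8). At this level the Eno3 share was 66.3% in F/R/C+CP and 60.9% in F/R/C, the Pfkm share 45.5% and 30%, and the Ldhb share 4.81% and 5.06%. Across the 5 bins of F/R/C, the Pgam2 share was 30.97%, 45.9%, 50%, 51.4% and 62.0% from low to high Acta1, so that none reached the 83.7% of the lowest F/R/C+CP bin.

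Member by member, with classes not held apart, the libraries differed most in Pgam2, Pgam1, Pfkl and Ldhb. Over all kept barcodes, 1 member was past 2-fold higher in F/R/C+CP than in F/R/C and 3 were past 2-fold lower, against 12.1% and 14.3% of 17999 genes measured. The 1 higher was Pgam2 and the 3 lower were Pgam1, Ldhb and Pfkl. Pgam1 and Pfkl were past 2-fold lower within every class too, but Ldhb in Pax7-positive barcodes only. In Pax7-positive barcodes the counts were 2 and 3 (12.1% and 13.5% of genes), in Myog-high barcodes 1 and 2 (8.72% and 13.8%) and in Acta1-high barcodes 1 and 2 (9.37% and 15.5%). The median log2 ratio of genes with at least 50 CPM in both libraries lay between -0.10 and 0.05 in these comparisons, and centring on it turned the direction of no member past 2-fold. In Myog-high barcodes, centring gave Eno1 and Eno3, whose ratios of -0.02 and -0.05 were within counting error, the opposite sign.

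Pgam1 was lower in F/R/C+CP by a similar factor whatever the class. It had 290, 266 and 132 CPM in Pax7-positive, Myog-high and Acta1-high barcodes of F/R/C+CP, and 782, 640 and 354 CPM in F/R/C. The log2 ratios between the libraries were -1.43, -1.27 and -1.43. Pfkl behaved alike, with log2 ratios of -1.49, -1.23 and -1.10. Ldhb did not: it was lower in F/R/C+CP in Pax7-positive barcodes (83.6 and 221 CPM, log2 ratio -1.40), less so in Myog-high barcodes (-0.64), and did not differ beyond counting error in Acta1-high barcodes (50.5 and 56.9 CPM, log2 ratio -0.17, -0.40 to 0.06). Pkm had 714 CPM in F/R/C+CP and 1159 CPM in F/R/C in Pax7-positive barcodes, and 886 and 681 CPM in Acta1-high barcodes.

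The Pgam2 and Eno3 UMIs in Pax7-positive barcodes of F/R/C+CP were set beside those of barcodes picked by genes of other cell types. F/R/C+CP held 51 barcodes with at least 10 UMIs of Tyrp1, a pigment cell gene, and 97 with at least 10 UMIs of Myh11, the smooth muscle myosin, Acta1-high barcodes left out. F/R/C held none of either kind. These sets were not kept apart from the Pax7-positive class. A Pax7 UMI was held by 27.5% of the Tyrp1 and 57.7% of the Myh11 barcodes. Their likeness to that class can therefore not tell background from transcripts of the cells themselves. The median depths of these sets were 17727 and 26275 UMIs, against 20902.5 in the Pax7-positive class. The Tyrp1-high barcodes carried 1005 CPM of Acta1 and 58.1 CPM of Pgam2, and the Myh11-high barcodes 877 and 54.7 CPM. The Pax7-positive barcodes carried 1057 and 73.4 CPM. Their Pgam2 shares were 18.3% and 22.2%, on either side of the 20.2% in Pax7-positive barcodes, and their Eno3 shares were 16.7% and 23.4%, on either side of 19.3%. The Pfkm shares were 10% (5.43 to 16.5) and 17.8%, against 17.1% in Pax7-positive barcodes. The Pgam2 share of Pax7-positive F/R/C+CP barcodes was thus close to that of both sets, and no difference between the libraries is read from it. The Pgam2 level of 73.4 CPM (72.0 to 74.8) lay inside the interval of Tyrp1-high barcodes (44.2 to 74.9). It lay above that of Myh11-high barcodes (46.3 to 64.3), where Pgam1 was lower, with 192 CPM against 290 CPM. How much of this Pgam2 was background was not tested. The Pfkm share was above the interval of the Tyrp1-high barcodes and close to that of the Myh11-high barcodes. The Eno3 level of 77.6 CPM (76.2 to 79.1) exceeded the 60.03 CPM (45.9 to 77.1) of Tyrp1-high and the 48.1 CPM (40.2 to 57.1) of Myh11-high barcodes, and the Eno3 share of the Myh11-high barcodes went with a lower Eno1 level there, 157 CPM against 325 CPM in Pax7-positive barcodes.

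The ratio of Pgam2 to Acta1 varied little between the sets. Per 100 Acta1 UMIs, there were 5.88 Pgam2 UMIs in Acta1-high, 5.78 in Tyrp1-high, 6.24 in Myh11-high, 6.94 in Pax7-positive and 7.15 in Myog-high barcodes of F/R/C+CP. If all Acta1 in Pax7-positive barcodes had come with RNA of the Acta1-high class, that RNA would have carried 62.1 of the 73.4 CPM of Pgam2, 48.7 of the 77.6 CPM of Eno3 and 5.54 of the 18.05 CPM of Pfkm. For Myog-high barcodes it would have carried 123 of 150 CPM of Pgam2 and 96.8 of 179 CPM of Eno3. Taking this RNA away left 3.86% Pgam2 and 8.63% Eno3 in Pax7-positive barcodes of F/R/C+CP, and 0.127% and 8.12% in F/R/C. The difference in Pgam2 share between Acta1-high and Pax7-positive barcodes of F/R/C+CP then became 83.7 points. This calculation was chosen after seeing the data and takes away Acta1 that cells made themselves too.

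In Pax7-positive barcodes of F/R/C, the RNA scaled by Acta1 was small and Eno3 exceeded it. Pax7-positive F/R/C barcodes had 34.7 Eno3 UMIs per 100 Acta1 UMIs and Myog-high ones 18.7, against 5.37 in Acta1-high barcodes. Of the 42.6 CPM of Eno3 in Pax7-positive barcodes, RNA scaled by Acta1 would have carried 6.59 CPM, and of the 185 CPM in Myog-high barcodes 53.2 CPM. For Pgam2 it would have carried 3.79 of 4.78 CPM in Pax7-positive barcodes, and 30.6 CPM in Myog-high barcodes, more than the 21.2 CPM measured. Myog-high barcodes of F/R/C thus held Eno3 in excess of their Acta1 and Pgam2 short of it.

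**Figure D5:**
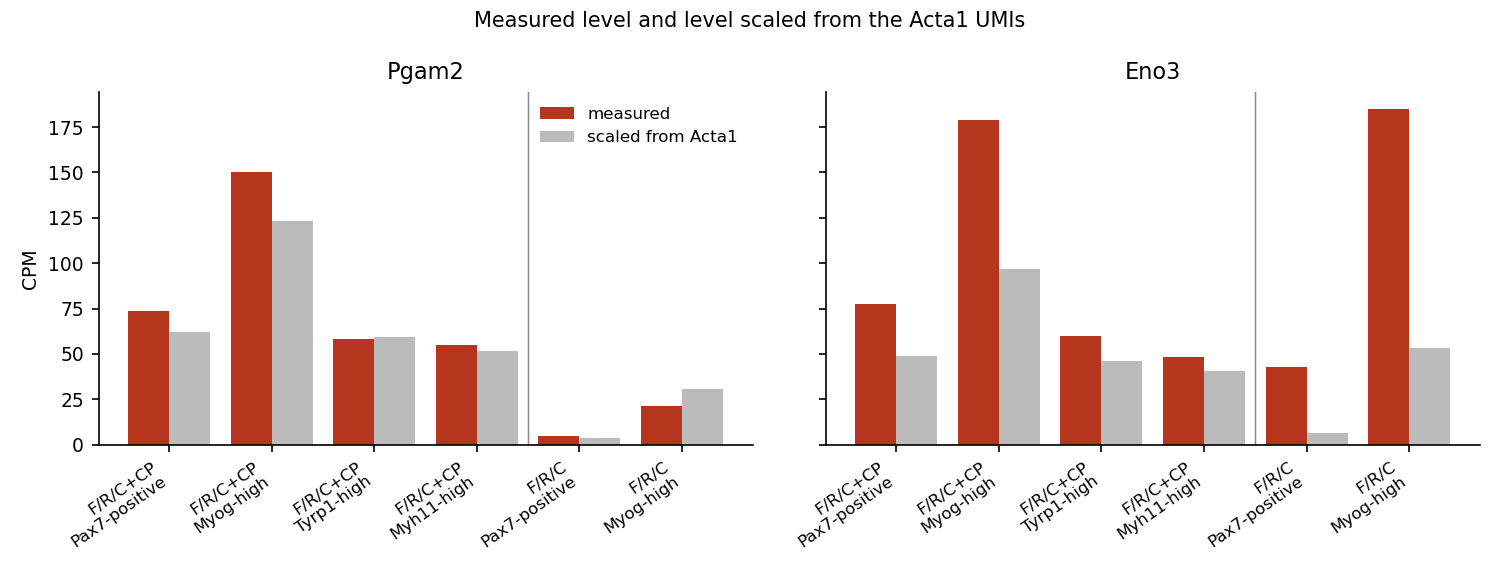
Measured level of Pgam2 (left) and Eno3 (right) in CPM (red bars) beside the level that RNA of the Acta1-high class would carry when scaled to the Acta1 UMIs of the same barcodes (grey bars), for 4 sets of F/R/C+CP barcodes and 2 sets of F/R/C barcodes. Bars are nearly level for Pgam2 in Tyrp1-high (58.1 and 59.1 CPM) and Myh11-high barcodes (54.7 and 51.5 CPM), while Eno3 in Myog-high F/R/C barcodes has 185 CPM measured and 53.2 CPM scaled.

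Pax7-positive barcodes were also divided by the proliferation gene Mki67. F/R/C barcodes with at least 2 Mki67 UMIs (721) and with none (834) had 789 and 773 CPM of Pgam1, 209 and 238 CPM of Ldhb, and 66.9 and 51.7 CPM of Pfkp. The 3511 and 1838 such barcodes of F/R/C+CP had 290 and 288 CPM of Pgam1, 79.7 and 93.4 CPM of Ldhb, and 43.7 and 43.8 CPM of Pfkp. Pgam1 was therefore alike in both. In F/R/C+CP, Pgam2 had 63.3 CPM with Mki67 and 94.8 CPM without, and Eno3 68.0 and 97.5 CPM. Acta1 had 904 and 1321 CPM there. In F/R/C, Pgam2 had 3.96 and 6.18 CPM, and Eno3 38.2 and 46.5 CPM. Barcodes without an Mki67 UMI were shallower, with medians of 17272.5 against 23780 UMIs in F/R/C+CP and 6384 against 9103 in F/R/C. They need not be cells outside the cycle, and the part of the cell cycle in the Pgam1 level was not tested.

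The rest of the pathway was taken from lists, and a gene was named when it had at least 50 CPM in a class and was past 2-fold in the same direction in both libraries. Of the other glycolytic enzymes, 4 were past 2-fold higher and 4 lower of 17 measured in Acta1-high against Pax7-positive barcodes of F/R/C+CP, and 0 and 2 of 12 in F/R/C, with medians of 0.04 and -0.25. Of all genes measured, 12.9% were higher and 39.7% lower in F/R/C+CP, and 10.1% and 39.2% in F/R/C. These counts leave out Aldoa, whose symbol 2 features share. Its main feature had 3224 CPM in Acta1-high and 1042 CPM in Pax7-positive barcodes of F/R/C+CP, and 2200 and 885 CPM in F/R/C. The other Aldoa feature had at most 0.678 CPM in the classes. Of the genes in the list, only Hk1, the hexokinase of most tissues, was named by the rule. Hk1 had 16.2 CPM in Acta1-high and 52.0 CPM in Pax7-positive barcodes of F/R/C+CP, and 29.5 and 127 CPM in F/R/C. The muscle hexokinase Hk2 was not past 2-fold, with 97.3 and 56.8 CPM in F/R/C+CP and 47.4 and 39.4 CPM in F/R/C, and is named after its values were seen.

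Glycogen enzymes had 6 genes past 2-fold higher in both libraries, with 2 of 15 lower in F/R/C+CP and 4 of 14 lower in F/R/C. Over all genes, 12.9% were higher and 39.7% lower in F/R/C+CP, and 10.1% and 39.2% in F/R/C. Pygm, the muscle glycogen phosphorylase, had 131 CPM in Acta1-high and 25.4 CPM in Pax7-positive barcodes of F/R/C+CP, and 103 and 7.63 CPM in F/R/C. Pygb, the brain form, was lower in both, with 1.57 and 7.05 CPM in F/R/C+CP and 1.35 and 9.34 CPM in F/R/C, so that the muscle and brain forms moved in opposite directions. Pygb was picked out after its values were seen. Ugp2, which makes UDP-glucose, was past 2-fold higher with log2 ratios of 2.32 and 2.29, and the glycogen synthase gene Gys1 with 1.13 and 1.42.

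Of genes for pyruvate entry and glycerol phosphate, 5 of 14 were past 2-fold higher and 1 lower in each library. Mpc1, a subunit of the mitochondrial pyruvate carrier, had 186 CPM in Acta1-high and 76.2 CPM in Pax7-positive barcodes of F/R/C+CP, and 343 and 91.6 CPM in F/R/C. Of glucose and lactate carriers, 2 of 8 were higher and 2 lower in F/R/C+CP, and 1 and 3 in F/R/C. Of genes for phosphofructokinase-2 and related enzymes, 1 was higher and 4 were lower of 7 in F/R/C+CP, and 1 and 3 of 6 in F/R/C. The shares over all genes were 12.9% higher and 39.7% lower in F/R/C+CP, and 10.1% and 39.2% in F/R/C. These lists are small, and nothing is read from their counts. Near relatives of the members were low: Bpgm was at 7.27 to 11.9 CPM in the classes, Eno1b at 2.28 to 5.41, Eno2 at 0.216 to 1.497, Ldhc at 0 to 2.86, Ldhd at 0 to 0.214 and Pklr at 0 to 0.0216.

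The genes whose level was most like that of a member were ranked by Pearson correlation of log2(CPM + 1) over the 20 Acta1 bins of both libraries, which share barcodes' order and library and are no independent points. For Pgam2 these were Tnnc1 (r = 0.997), Atp2a1 (0.995), Tpm1 (0.994), Apobec2 (0.990) and Myh7 (0.988), most of them genes of the contractile apparatus or its calcium supply. For Eno3 they were Tnni2 (0.995), Chrng (0.991), Jpt1 (0.988), Ugp2 (0.986) and Ehd4 (0.986). Chrng encodes the embryonic subunit of the acetylcholine receptor. For Pgam1 they were Snrpc (0.991), Shmt2, Fgd4, Bnc2 and Rbm4b, and for Ldhb they were Ociad2 (0.994), Errfi1, Gm266, Maml3 and Cebpb.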

How the data were processed

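Single-cell 3' libraries of 2 iMPC clones were analysed, 1 per group, with groups taken from the sample labels. The deposited matrices hold UMI counts, not normalised. The submitters' processing notes name Cell Ranger 7.0.0, STARsolo, Seurat 4.2.1 and the build GRCm39. The methods of the study include removal of ambient RNA from F/R/C+CP counts. Both matrices hold whole numbers, and whether they precede that step is not settled.

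Barcodes were kept with the limits of the study: at least 250 genes, at most 7000 (F/R/C+CP) or 4000 (F/R/C) genes, at most 15% mitochondrial and at most 40% ribosomal protein counts. No doublet caller was run. UMIs were summed per class, and CPM are counts per 1000000 summed UMIs. Past 2-fold was called for genes with at least 10 counts over both sums. The step was tested on simulated data. Alternatives were no filter, at least 4000 UMIs, the shared UMI range, thinning to 2000 UMIs (seed 1), cuts of 5% and 20%, at least 2 Pax7 UMIs, the deepest 5% left out, means over barcodes, Eno1b added to Eno1, shared barcodes left out, centred ratios and no minimum count. Python 3.11.15, numpy 2.4.6 and scipy 1.17.1 were used. Aldoa, whose symbol 2 features share, was left out of the lists, and Gyg1 was not used here. Matching 31-base words were searched in GENCODE transcripts.

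The members, lists and tests were chosen with earlier results of these data known. All members are described. Other genes of the lists were named at 50 CPM or more in a class and past 2-fold in 1 direction in both libraries, near relatives always, and 5 most similar genes for each of 4 members. One gene that this rule names is not reported here.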

Additional observations from a re-analysis of the deposited data

Results flagged for a closer look

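The Pkm level moved in opposite directions in the 2 libraries. The log2 ratio of Acta1-high over Pax7-positive barcodes was 0.31 in F/R/C+CP and -0.77 in F/R/C. The difference was not tested, since each ratio comes from 1 library.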

How the results depend on the processing

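No paired analysis was possible because each group had 1 library. Differences in share between Acta1-high and Pax7-positive barcodes kept their sign in F/R/C+CP and F/R/C under every alternative run. In percentage points, they were without a filter 63.9 (Pgam2) and 50.8 (Eno3) in F/R/C+CP, and 59.8, 61.8 and 34.4 (Pgam2, Eno3, Pfkm) in F/R/C. In the UMI range both libraries hold they were 65.8, 43.9 and 31.6 (Pgam2, Eno3, Pfkm) in F/R/C+CP, and 49.5, -10.99 and 33.6 (Eno3, Ldhb, Pfkm) in F/R/C. After thinning they were 69.2, 54.2, -7.53 and 23.1 (Pgam2, Eno3, Ldhb, Pfkm) in F/R/C+CP. With cuts of 5% they were 63.2, 51.2, -6.47 and 25.2 in F/R/C+CP in the same order, and 55.3, 57.8 and -12.6 (Pgam2, Eno3, Ldhb) in F/R/C. With cuts of 20% they were 66.4, 49.998, -7.58 and 25.5 in F/R/C+CP, and 34.4, 50.4 and 24.7 (Pgam2, Eno3, Pfkm) in F/R/C. With at least 2 Pax7 UMIs they were 68.6, 54.2 and -7.32 (Pgam2, Eno3, Ldhb) in F/R/C+CP. Without the deepest 5% they were 69.1, 52.3, -6.49 and 30.7 in F/R/C+CP. As means over barcodes they were 65.3, 47.1, -7.43 and 29.9 in F/R/C+CP, and 44.7 and 50.1 (Pgam2, Eno3) in F/R/C. With Acta1-scaled counts taken away, an alternative chosen after seeing the data, they were 83.7, 63.7, -7.77 and 30.7 in F/R/C+CP. The F/R/C+CP minus F/R/C differences over all kept barcodes, for Pgam2, Eno3, Ldhb and Pfkm, were 39.9, 9.39, -6.23 and 14.03 points without a filter, 34.6, 10.7, -6.73 and 13.5 after thinning, and 24.05, 8.003, -6.31 and 13.7 as means over barcodes. Without the deepest 5% they were 33.97 (Pgam2), 9.90 (Eno3) and 14.8 (Pfkm). In the shared UMI range they were 11.7, -20.5, 1.03 and -0.545, so Eno3, Ldhb and Pfkm changed sign, and the mix of classes differed there; the cause was not tested. At least 4000 UMIs, leaving out shared barcodes and adding Eno1b moved no difference beyond counting error. With no minimum count, genes past 2-fold higher in Acta1-high than in Pax7-positive barcodes were 4191 and not 2212 in F/R/C+CP, and 4579 and not 1355 in F/R/C, and in Myog-high barcodes 3907 and not 1340, and 4205 and not 1125. Genes past 2-fold lower in F/R/C+CP than in F/R/C were then 5587 and not 2576 over all kept barcodes, 5469 and not 2295 in Pax7-positive, 5850 and not 1893 in Myog-high and 6333 and not 2223 in Acta1-high barcodes. The F/R/C library limits the depth, with a median of 7112 UMIs in kept barcodes and 67 Pgam2 UMIs in its Pax7-positive class.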

Other observations

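The Tyrp1-high and Myh11-high barcodes of F/R/C+CP, some of which also held a Pax7 UMI, differed from the myogenic classes in lactate dehydrogenase. Ldhb had 148 CPM in the 51 Tyrp1-high and 171 CPM in the 97 Myh11-high barcodes, against 83.6, 34.3 and 50.5 CPM in the Pax7-positive, Myog-high and Acta1-high barcodes of the same library. The Ldhb share was 20.7% and 30.4% in the Tyrp1-high and Myh11-high barcodes. The 15 glycogen enzyme genes summed to 721 CPM in Tyrp1-high, 345 CPM in Myh11-high, 334 CPM in Pax7-positive and 757 CPM in Acta1-high barcodes, and 1 gene gave 327 CPM of the Tyrp1-high sum.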
